A study of Mus musculus with 6 samples.

Results

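The genes described here mark the 3 rarer secretory and sensory lineages of the intestinal epithelium: the goblet cell genes Agr2, Tff3 and Spdef, the enteroendocrine genes Chga, Neurog3, Neurod1 and Rfx6, and the tuft cell gene Dclk1. These 8 genes were chosen by name, out of 34614 protein-coding or lncRNA genes in the annotation. Their methylation was read at cytosines inside each mm10 gene span and 1000 bases to either side. Reduced representation bisulfite sequencing (RRBS), which reads cytosine methylation in a CpG-rich fraction of the genome, had been applied to genomic DNA of mouse intestinal organoids with the Apc Min genotype. One group of 3 biological replicates received DM-aKG and the other 3 were control-treated; both groups carried Apc Min and were kept in low glutamine medium. The Min mutation shortens Apc, which restrains Wnt signalling in crypts. α-Ketoglutarate is used by the TET enzymes when they oxidise methylated cytosine, so the comparison asks how methylation at lineage genes differed between DM-aKG and control organoids. The labels used here do not state the dose, the duration, the age of the mice or the RRBS enzyme.

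Goblet cells secrete the mucus layer, enteroendocrine cells release hormones in response to luminal contents, and tuft cells are chemosensory cells that signal to the immune system. All descend from crypt stem cells, and the goblet and enteroendocrine lineages arise from progenitors in which Notch signalling is low. DNA methylation at a promoter usually accompanies silencing, while methylation inside a gene body is common in transcribed genes and has no single reading. A methylation level in a bulk sample is an average over all cells, so a change in the share of a cell type and a change within cells cannot be told apart. Genomic DNA carries no expression values, so whether goblet, enteroendocrine or tuft cells were present in these organoids could not be checked.

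The members' data came from 196 positions, 145 of which had a value in all 6 libraries. The first 390208 rows of the deposited table were used, and in them a 0 stands for no value and the lowest value is 40%. Dclk1 had 82 complete sites, Agr2 had 23, Spdef had 22, Chga had 10 and Tff3 had 8. The proendocrine factor Neurog3 and the enteroendocrine factor Rfx6 had no position in the table at all, although the Rfx6 span covers 52670 bases. Neurod1, a factor acting after Neurog3 in endocrine differentiation, had 1 position, on chromosome 2 at 79457153, with 100% and 67% in DM-aKG replicates 1 and 3 and 50% in control replicate 2, and no value in the other 3 libraries. The 3 enteroendocrine regulators therefore have no comparison, and the enteroendocrine lineage is represented by Chga alone. A gene without any position was common: 41.9% of the 19641 genes in the part of the genome used had none, as did 13.5% of the 3519 genes with a span of 50 kb or more. Of the 145 complete sites, 141 lay in gene bodies and 4 within 1000 bases of a gene end.

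No measured position lay in the 250 bases before an annotated start of any member with a promoter in the RefSeq table (7 of the 8 genes; Tff3 is not in it). The sequences of 4 of these windows are shown because they set the CpG-dense promoters of Neurog3, Neurod1 and Chga beside the CpG-poor Agr2 promoter. The window of Rfx6, also an enteroendocrine gene, holds 2 CpGs and is not shown. They are RefSeq sequences of GRCm38.p6, the assembly of mm10, given 5′ to 3′ on the strand of the gene, with every CpG in capitals.
Neurog3, chr10:62132840-62133089, plus strand: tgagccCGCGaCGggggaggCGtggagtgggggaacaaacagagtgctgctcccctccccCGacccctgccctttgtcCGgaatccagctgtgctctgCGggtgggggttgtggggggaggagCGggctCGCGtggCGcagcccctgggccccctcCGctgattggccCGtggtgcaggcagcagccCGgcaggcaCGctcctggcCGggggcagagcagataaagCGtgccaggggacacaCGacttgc
Neurod1, chr2:79456637-79456886, minus strand: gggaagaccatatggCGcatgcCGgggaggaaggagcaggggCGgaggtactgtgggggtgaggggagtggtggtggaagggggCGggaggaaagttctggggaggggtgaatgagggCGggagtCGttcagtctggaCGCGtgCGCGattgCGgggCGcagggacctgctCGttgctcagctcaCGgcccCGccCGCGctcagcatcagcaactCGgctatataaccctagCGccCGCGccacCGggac
Chga, chr12:102554691-102554940, plus strand: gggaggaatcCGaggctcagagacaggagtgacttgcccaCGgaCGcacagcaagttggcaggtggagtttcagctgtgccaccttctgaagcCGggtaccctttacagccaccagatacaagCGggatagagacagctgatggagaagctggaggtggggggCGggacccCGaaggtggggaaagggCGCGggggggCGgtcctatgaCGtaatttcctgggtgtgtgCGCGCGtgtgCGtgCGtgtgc
Agr2, chr12:35992675-35992924, plus strand: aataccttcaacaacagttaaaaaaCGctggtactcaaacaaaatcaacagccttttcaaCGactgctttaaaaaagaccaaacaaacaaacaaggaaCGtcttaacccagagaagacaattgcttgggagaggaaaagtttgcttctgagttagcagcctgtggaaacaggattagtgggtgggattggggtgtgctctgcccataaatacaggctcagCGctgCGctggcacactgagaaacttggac

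The Neurod1, Neurog3 and Chga windows hold 22, 18 and 16 CpGs, against 5 in Agr2, 7 in Spdef, 2 in Rfx6 and 4 in each of the 2 Dclk1 windows; the median of 18212 such windows was 6. The letters CCGG, which read the same on both strands and are the recognition sequence of MspI, the enzyme most widely used for RRBS, occur 3 times before Neurog3, 2 times before Neurod1 and once before Chga, and are absent from the other 5 windows. Across all windows 47.8% hold CCGG and 3.6% hold a measured position, and among the 3432 windows with 20 or more CpGs 2.39% do. Since levels under 40% have no value in the table, an unmethylated promoter and a promoter that was not sequenced look alike. The nearest complete site to an annotated start was 3623 bases away in Spdef, 6856 in Agr2, 7821 in Chga and 13808 in Dclk1, measured from the first promoter listed. The results that follow are therefore about gene bodies, with the exception of 4 sites in Tff3 and Spdef. The Spdef end site, 27714583, is at the lower end of a gene on the minus strand, so it is not on the start side. No strand was available for Tff3, so its end sites are not assigned to a side.

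Mean levels over the 272327 complete sites were 88.3% to 88.9% in the DM-aKG libraries and 86.7% to 88.0% in the control libraries, with control replicate 1 the lowest. The table has no coverage column, so the depth of reads under a level is unknown. Over the members' 196 positions control replicate 1 also had the fewest values, 158, against 175 to 178 in the DM-aKG libraries and 180 and 183 in control replicates 2 and 3. The same library had the fewest values over all rows used. It had a value in 83.7% of them, against 85.2% to 86.0% in the DM-aKG libraries and 87.8% and 88.6% in control replicates 2 and 3. No gene span passed limma with Benjamini-Hochberg adjustment at 0.05: 0 of 9197 were called (percent called 0), and 573 (6.23%) had an unadjusted p under 0.05. The median difference over all gene spans was 0.733 percentage points, DM-aKG minus control, and 66.3% of differences were positive.

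All 5 measured members had positive differences, from 2.55 to 3.89 points with a median of 3.38 points, and none passed the test. In 4 of the 5 the DM-aKG libraries lay wholly above the controls, a pattern seen in 11.3% of all gene spans; the opposite pattern was seen in 2.53%. Equalising library means lowered the difference of every gene by nearly the same amount. That amount is smaller than the difference of any of the 5 members, so their signs could not turn and this is no test of them. The median over all gene spans was then -0.317 points with 43.9% of differences positive, and the 5 members lay between 1.5 and 2.84 points. Under that scaling, with every difference lowered, the groups were apart in 5.56% of gene spans with DM-aKG higher and 8.2% with DM-aKG lower. Of the members Agr2 alone remained apart. The members were chosen with earlier results of these data known, so that count describes these genes and is not a test of the list.

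**Figure D1:**
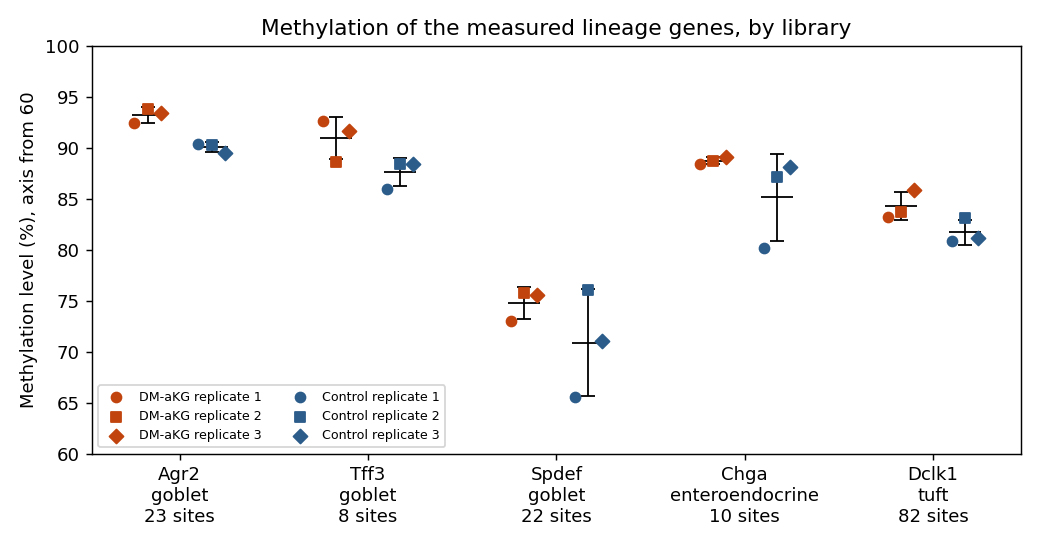
Mean methylation level (%, vertical axis from 60) of the complete sites of each measured gene, with 1 point for each library, DM-aKG in orange and control in blue, and black bars showing group means with their SD (n = 3). Agr2, Tff3, Chga and Dclk1 show no overlap between groups (Agr2 alone with library means equalised), while for Spdef the 3 DM-aKG libraries lie between the lowest and highest control.

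Agr2 encodes a protein disulfide isomerase of the endoplasmic reticulum that goblet cells need to make mucin. Its span lies on chromosome 12 from 35992925 to 36004081, and all 23 sites are in the gene body. Agr2 was at 92.4%, 93.8% and 93.4% in DM-aKG replicates 1 to 3, against 90.4%, 90.3% and 89.5% in control replicates 1 to 3. The spread within each group was the smallest of the goblet genes, and the groups did not overlap. The means were 93.2% ± 0.742 with DM-aKG and 90.1% ± 0.504 in controls (SD, n = 3 each), a difference of 3.16 points with a 95% interval of 0.877 to 5.44 from limma on untransformed levels. On log2 odds the difference was 0.54 (SE 0.15; limma adjusted p = 0.764). Agr2 was the only member whose unadjusted p was under 0.05, as 6.23% of all gene spans were.

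Within Agr2, 22 of the 23 sites lie in a single stretch from 36001540 to 36001742. The sites vary widely there, with means over the 6 libraries between 68.0% and 100%, and 2 sites were at 100% in every library. DM-aKG means were above control means at 13 sites, below at 7 and equal at 3. The only Agr2 site without overlap was 36001667, with 86%, 93% and 92% with DM-aKG, against 77%, 83% and 57% in controls (limma adjusted p = 0.872). At the neighbouring position 36001666 the difference was -9.33 points with overlapping groups. Positions 1 base apart were read as the cytosines of a single CpG on opposite strands, and Agr2 has 10 such pairs, so the 23 sites are not independent.

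Tff3 encodes trefoil factor 3, a small peptide secreted with mucus that supports epithelial repair. Its span on chromosome 17, from 31125306 to 31129611, held 8 complete sites. Tff3 was at 92.6%, 88.6% and 91.6% in DM-aKG replicates 1 to 3, against 86.0%, 88.4% and 88.4% in control replicates 1 to 3. The groups did not overlap, but DM-aKG replicate 2 was nearly level with control replicates 2 and 3. The means were 91.0% ± 2.08 with DM-aKG and 87.6% ± 1.37 in controls (SD, n = 3 each), a difference of 3.38 points (95% interval -0.0847 to 6.83; limma adjusted p = 0.764).

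Tff3 is the only member with several sites both near an end and in the body. Its difference was larger in the body, but the test of end against body did not separate them. Its 5 body sites averaged 88.5% ± 4.63 with DM-aKG and 83.0% ± 3.54 in controls (SD, n = 3 each), a difference of 5.53 points with overlapping groups (95% interval -1.72 to 12.8; limma adjusted p = 0.757). Leaving out single libraries moved the Tff3 body difference between 3.6 points (without DM-aKG replicate 1) and 8.1 points (without DM-aKG replicate 2), with 3.63 points without control replicate 1. Its 3 end sites, from 31125029 to 31125199, averaged 95% ± 2.19 with DM-aKG and 95.2% ± 2.83 in controls, a difference of -0.222 points (95% interval -5.41 to 4.97; limma adjusted p = 0.983). The difference between end and body, tested across the 2706 genes with both, did not pass (-5.76 points, 95% interval -16.9 to 5.42; limma adjusted p = 0.958; no gene was called, percent called 0, with 5.58% at an unadjusted p under 0.05). For Spdef it was 6.75 points (95% interval -12.3 to 25.7; limma adjusted p = 0.967). Neither gene's end minus body values were apart between groups, as those of 5.62% of genes were with DM-aKG higher and 5.21% with DM-aKG lower. The sign of the Tff3 end value turned when DM-aKG replicate 1, control replicate 1 or control replicate 2 was left out.

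Spdef encodes an ETS transcription factor that drives goblet and Paneth cell maturation. It is the goblet regulator of the set and had the lowest level of any member: its control level stood at percentile 3.73 of all tested gene spans. Spdef was at 73.0%, 75.8% and 75.5% in DM-aKG replicates 1 to 3, against 65.5%, 76.0% and 71.1% in control replicates 1 to 3. Control replicate 2 was above all 3 DM-aKG libraries, so the groups overlapped. The means were 74.8% ± 1.54 with DM-aKG and 70.9% ± 5.28 in controls (SD, n = 3 each), a difference of 3.89 points (95% interval -2.58 to 10.4; limma adjusted p = 0.771). Leaving out control replicate 1 gave 1.2 points, and leaving out control replicate 2 gave 6.48 points.

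The 22 Spdef sites fall in 4 stretches on chromosome 17 between 27714583 and 27725328, and 15 of them had a mean under 80%. The stretch from 27718480 to 27718595 had 3 sites at 91.4% ± 4.03 with DM-aKG and 87.9% ± 7.76 in controls (SD, n = 3 each). The stretch from 27720287 to 27720476 had 10 sites at 71.7% ± 4.25 with DM-aKG and 67.5% ± 4.40 in controls. The stretch from 27725074 to 27725328 had 8 sites at 71.1% ± 7.01 with DM-aKG and 68.2% ± 5.27 in controls. Every stretch thus had a positive difference smaller than the spread between replicates. The only Spdef site with DM-aKG wholly above control was 27720475, at 67%, 64% and 65% with DM-aKG, against 53%, 61% and 63% in controls (limma adjusted p = 0.872). At 27725328 the groups were apart in the other direction, with 61%, 72% and 67% with DM-aKG, against 77%, 86% and 75% in controls (limma adjusted p = 0.868). This was the only one of the 145 sites with DM-aKG wholly below control. The single end site, 27714583, had 89%, 70% and 97% with DM-aKG, against 62%, 83% and 80% in controls, with overlap (limma adjusted p = 0.87). Its difference was 10.3 points. It was 3.83 without control replicate 1, 4.5 when DM-aKG replicate 3 was left out and 18 when DM-aKG replicate 2 was.

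Over the 3 goblet genes together the level was 86.3% ± 0.48 with DM-aKG and 82.8% ± 2.14 in controls (SD, n = 3 each), a difference of 3.48 points, given as a description. It was 2.37 points without control replicate 1.

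**Figure D2:**
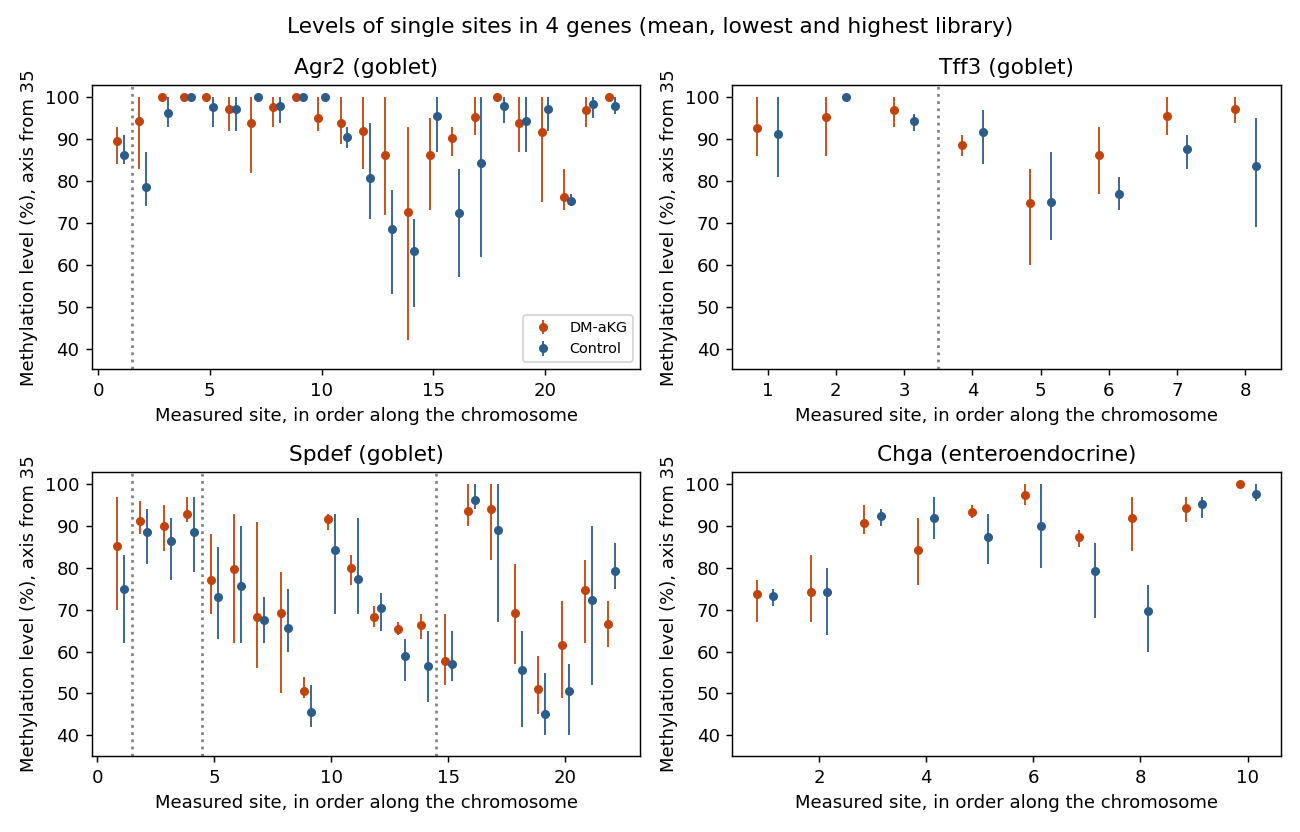
Methylation level (%, vertical axis from 35) of every complete site in Agr2, Tff3, Spdef and Chga, in order along the chromosome (horizontal axis), as the group mean with a line from the lowest to the highest library; dotted lines separate stretches over 500 bases apart. Most ranges of DM-aKG (orange) and control (blue) overlap: in these 4 genes 3 sites lie wholly above and 1 wholly below control.

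Chga encodes chromogranin A, a protein of hormone secretory granules used as a general marker of enteroendocrine cells. Its span lies on chromosome 12 from 102554941 to 102565027, and its 10 complete sites are all in the gene body, from 102562762 to 102562910. Chga was at 88.4%, 88.7% and 89.1% in DM-aKG replicates 1 to 3, against 80.2%, 87.1% and 88.1% in control replicates 1 to 3. The groups did not overlap, and control replicate 1 stood apart from the other 5 libraries. The means were 88.7% ± 0.351 with DM-aKG and 85.1% ± 4.30 in controls (SD, n = 3 each), a difference of 3.60 points (95% interval -1.64 to 8.84; limma adjusted p = 0.764). Without control replicate 1 it was 1.13 points.

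Much of the Chga difference came from 1 site. At 102562894 the levels were 95%, 84% and 97% with DM-aKG, against 60%, 73% and 76% in controls, a difference of 22.3 points without overlap (limma adjusted p = 0.81). Its neighbour on the opposite strand, 102562893, was at 88%, 85% and 89% with DM-aKG, against 68%, 84% and 86% in controls, with overlap. Over the other 9 sites the level was 88.4% ± 0.788 with DM-aKG and 86.9% ± 3.84 in controls (SD, n = 3 each), a difference of 1.52 points with overlapping groups. Of the 10 sites 6 had a positive difference, 3 a negative one and 1 none.

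Dclk1 encodes doublecortin-like kinase 1, a microtubule-binding kinase used as a tuft cell marker in the mouse intestine. Its span on chromosome 3, from 55242303 to 55539068, is the longest of the set and held 120 positions. Dclk1 was at 83.2%, 83.7% and 85.9% in DM-aKG replicates 1 to 3, against 80.8%, 83.1% and 81.2% in control replicates 1 to 3. The groups did not overlap, but DM-aKG replicate 1 and control replicate 2 were nearly level. The means were 84.3% ± 1.39 with DM-aKG and 81.7% ± 1.23 in controls (SD, n = 3 each), a difference of 2.55 points (95% interval -0.366 to 5.47; limma adjusted p = 0.764). It was 1.76 points without DM-aKG replicate 3 and 3.26 points without control replicate 2. With each 0 counted as a level over all 120 positions the difference was -0.275 points.

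The Dclk1 sites form 14 stretches separated by more than 500 bases, and their levels differ widely within the gene. Toward the far end, 15 sites from 55533575 to 55533712 were at 92.0% ± 1.75 with DM-aKG and 90.7% ± 0.0667 in controls (SD, n = 3 each). The densest stretch, 21 sites from 55352564 to 55352862, was at 88.3% ± 2.52 with DM-aKG and 87.6% ± 1.67 in controls. The stretch with the lowest control level, 7 sites from 55337063 to 55337150, was at 74.2% ± 0.577 with DM-aKG and 69.4% ± 3.29 in controls, and its groups did not overlap. Levels in the gene body are thus not uniform, and the 2 stretches with most sites are the ones where the groups differ least in the upward direction.

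The largest Dclk1 difference was in 4 sites from 55406726 to 55406904. Their mean was 83.5%, 93.8% and 82.8% in DM-aKG replicates 1 to 3, against 60.5%, 83.2% and 70.2% in control replicates 1 to 3. The groups overlapped, since control replicate 2 exceeded DM-aKG replicate 3. Within it the site 55406726 was at 100% in all 3 DM-aKG libraries, against 50%, 88% and 50% in controls, a difference of 37.3 points (limma adjusted p = 0.848). Leaving this stretch out, the other 78 Dclk1 sites were at 84.1% ± 1.62 with DM-aKG and 82.2% ± 0.755 in controls, a difference of 1.90 points. A stretch of 2 sites from 55380266 to 55380414 lies inside the overlapping lncRNA gene Gm9831 and cannot be given to either gene; it was at 83.7% ± 0.764 with DM-aKG and 73.7% ± 4.51 in controls.

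Of the 14 Dclk1 stretches 11 had a positive and 3 a negative difference. The lowest was in 5 sites from 55423200 to 55423313, at 69.1% ± 1.67 with DM-aKG and 73.9% ± 5.10 in controls (SD, n = 3 each), with overlap. In 3 stretches the DM-aKG libraries lay wholly above the controls, and in none wholly below. No share over stretches of all genes was computed, so this count is a description only. The 3 include the stretch inside Gm9831. They also include the stretch from 55533575, where the lowest DM-aKG library was at 90.9% and the highest control at 90.8%.

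**Figure D3:**
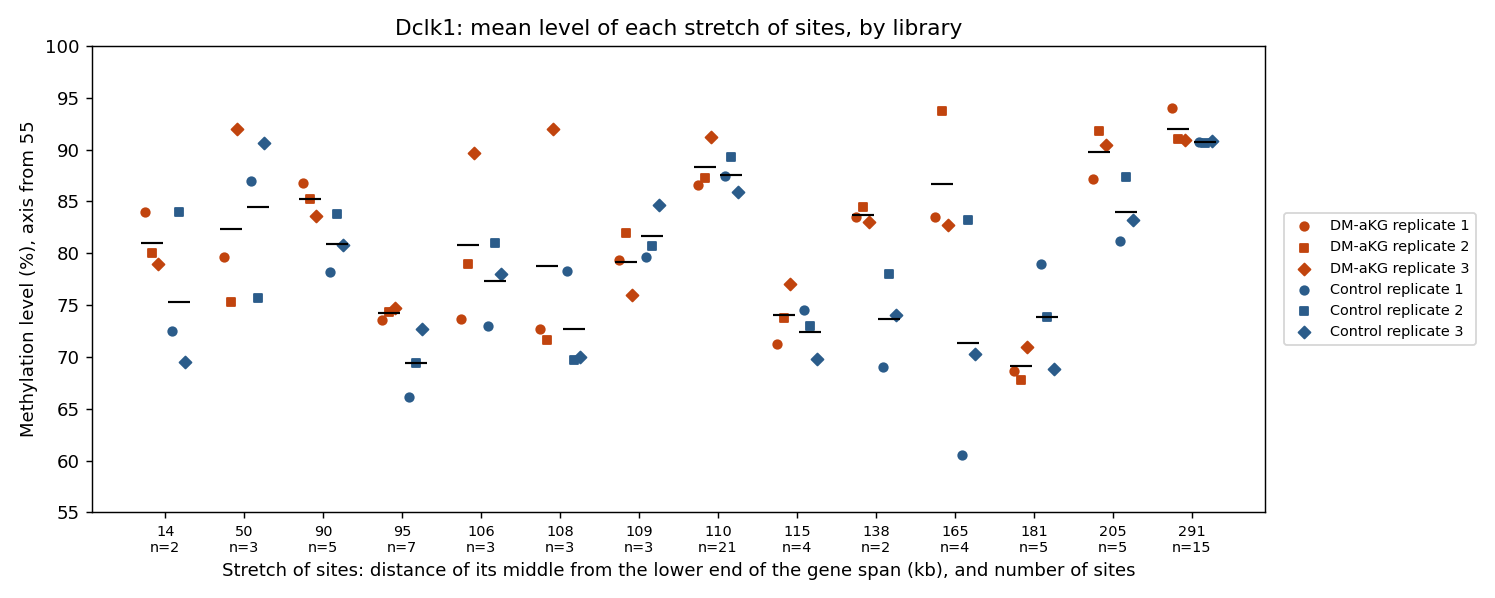
Mean level (%, vertical axis from 55) of each of the 14 stretches of complete sites in Dclk1 by library, with DM-aKG in orange and control in blue, short black lines for group means, and the distance from the lower end of the gene span and the number of sites below the axis. The groups are apart in 3 stretches, all with DM-aKG higher, given as a description. In the last stretch they are nearly level, with the lowest DM-aKG library at 90.9% and 3 nearly identical controls (90.7% to 90.8%).

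At single sites most differences of the members were positive, and no site passed the test. Of the 145 sites 97 had a positive difference, 42 a negative one and 6 none. Over all sites 53.3% of differences were positive, and 45.8% with library means equalised. A site with the same level in every library takes its sign from that scaling alone. Sites apart with DM-aKG lower rose from 6795 to 32766 under it, while those with DM-aKG higher went from 12622 to 11134. No equalised count was made for the 145 sites, so the 45.8% cannot be set beside the 97. The 145 include positions 1 base apart, so they are not independent. The test was limma on untransformed levels with adjustment over all 272327 sites, where 0 sites were called in all (percent called 0) and 14803 (5.44%) had an unadjusted p under 0.05; among the members 6 sites did. The groups were apart with DM-aKG higher at 10 member sites and lower at 1, against 4.63% and 2.5% of all sites. Of the 10, Dclk1 held 7 of its 82 sites, and Agr2, Spdef and Chga 1 each.

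With gene ends and bodies apart, no member passed. Among gene bodies 1 of 8642 genes was called (0.0116%). It was BC147527, named after its value was seen, which rests on 1 site at 100% in all DM-aKG libraries, and no gene body was called with a replicate block or without DM-aKG replicate 1. Among the members Agr2 alone had an unadjusted p under 0.05 in the body, against 5.89% of gene bodies. The groups were apart with DM-aKG higher in the bodies of Agr2, Chga and Dclk1, against 10.7% of gene bodies, and in none with DM-aKG lower, against 2.52%. With library means equalised 5.18% of gene bodies were apart with DM-aKG higher and 8.44% with DM-aKG lower, and of the members Agr2 alone remained apart. In gene bodies the differences were 3.16 points for Agr2, 5.53 for Tff3, 3.59 for Spdef, 3.60 for Chga and 2.55 for Dclk1, with limma adjusted p between 0.757 and 0.783. The Spdef body difference was 1.08 points without control replicate 1 and 6.1 without control replicate 2. Among gene ends 0 of 4395 genes were called by limma (percent called 0; 5.16% had an unadjusted p under 0.05). Tff3 and Spdef were the only members with an end value; their differences had opposite signs, and their groups overlapped, where 8.05% of gene ends were apart with DM-aKG higher and 3.07% with DM-aKG lower. Agr2, Chga and Dclk1 had no complete end site.

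The other genes of each lineage, from lists drawn up by name, give a setting for the members; no list gene passed limma in either direction. Of 24 other goblet genes 11 lie in the part of the genome used and 7 were tested, with 2 positive and 5 negative differences, also with library means equalised, and a median of -0.40 points (-1.45 equalised), against 0.733 for all gene spans (-0.317 equalised). Tpsg1, a transmembrane protease gene, was at 79.0% ± 2.44 with DM-aKG and 75.3% ± 2.76 in controls (SD, n = 3 each). Foxa1, a forkhead factor of the secretory lineage, was at 69.5% ± 9.76 with DM-aKG and 79.5% ± 11.9 in controls, and Foxa2, its paralog, at 92.0% ± 1.98 with DM-aKG and 90.6% ± 2.29 in controls. Tff1, a trefoil factor gene, was at 86.9% ± 0.971 with DM-aKG and 88.0% ± 2.38 in controls. The positive differences of Agr2, Tff3 and Spdef were thus not shared by most other goblet genes measured.

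Of 32 other enteroendocrine genes 12 were tested, with 11 positive differences and 1 negative, and a median of 1.68 points; with library means equalised 8 were positive and 4 negative, with a median of 0.633. Vwa5b2 had the smallest p, with 84.6% ± 1.58 with DM-aKG and 79.6% ± 0.676 in controls (SD, n = 3 each; limma adjusted p = 0.764). Myt1, a zinc finger factor of endocrine progenitors, was at 89.1% ± 0.611 with DM-aKG and 85.9% ± 3.52 in controls. The homeobox gene Prox1 was at 88.7% ± 2.30 with DM-aKG and 86.2% ± 0.522 in controls, and the zinc finger gene St18 at 91.0% ± 2.10 with DM-aKG and 89.3% ± 1.18 in controls. The groups were apart with DM-aKG higher for Vwa5b2 and Prox1, as were 11.3% of all gene spans. With library means equalised Vwa5b2 alone of these 12 was apart, as were 5.56% of all gene spans with DM-aKG higher.

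Of 26 other tuft cell genes 11 were tested, and all 11 had positive differences, with a median of 2.33 points, from 0.292 to 6.27; with library means equalised 7 were positive and 4 negative, with a median of 1.28. Etv1, an ETS factor, was at 94.4% ± 0.671 with DM-aKG and 91.1% ± 0.438 in controls (SD, n = 3 each). Fyb, an adaptor also found in T cells, was at 78.9% ± 3.59 with DM-aKG and 72.7% ± 0.416 in controls over 5 sites. Ptgs1, the cyclooxygenase of tuft cells, was at 86.5% ± 1.04 with DM-aKG and 83.3% ± 2.02 in controls. The groups were apart with DM-aKG higher in 4 of the 11, against 11.3% of all gene spans. Among the 4 were Etv1, Fyb and Gfi1b, each with a limma adjusted p of 0.764. With library means equalised they were apart in 3, against 5.56% of all gene spans, and Gfi1b overlapped.

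Marker genes of cells outside these lineages were also measured. Of 8 tested fibroblast markers 6 had positive differences, with a median of 2.74 points and a mean level of 82.3% to 84.2% in the DM-aKG libraries and 78.8% to 81.5% in the controls. Of 3 tested immune markers 2 were positive (median 0.711 points), with mean levels of 82.5% to 84.5% in the DM-aKG libraries and 78.3% to 83.7% in the controls. Both of the 2 endothelial markers were positive (median 1.23 points), at 89.5% to 89.7% in the DM-aKG libraries and 86.7% to 89.6% in the controls. A methylation level does not measure how many such cells a sample holds, and their part in the members' differences was not tested. Paneth cell genes had 2 positive differences of 3 (median 1.30 points), absorptive enterocyte genes 2 of 6 (median -0.339) and stem cell genes 4 of 10 (median -1.05). With library means equalised, positive differences numbered 5 of 8 for fibroblast (median 1.69 points), 1 of 3 for immune (median -0.339), 1 of 2 for endothelial (median 0.179), 2 of 3 for Paneth (median 0.249), 2 of 6 for enterocyte (median -1.39) and 3 of 10 for stem cell genes (median -2.10). Without that scaling, groups were apart with DM-aKG higher in 3 fibroblast markers, 1 endothelial marker and 1 stem cell gene, against 11.3% of all gene spans. Under it 1 endothelial marker was apart with DM-aKG higher and 1 stem cell gene with DM-aKG lower, against 5.56% and 8.2%.

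**Figure D4:**
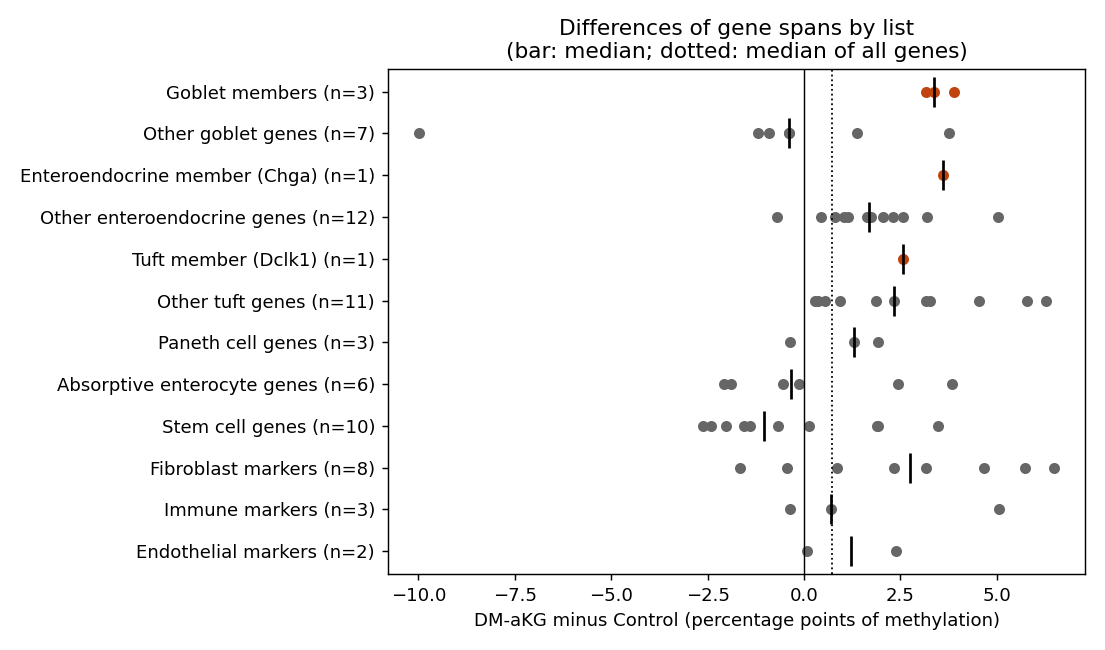
Difference in gene span methylation (percentage points, DM-aKG minus control, horizontal axis) of each tested gene in 12 rows of genes, with members in orange, a bar for the median of each row and a dotted line at the median of all gene spans, 0.733. The members lie between 2.55 and 3.89 points, and the other tuft genes are all above 0 (7 of 11 with library means equalised) while the other goblet genes have a median of -0.40.

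Among the 30 tested genes of these 3 lists, the one whose level followed each member most closely over the 6 libraries was Vwa5b2 for Agr2 (Pearson r = 0.985), Myt1 for Chga (0.984), Tpsg1 for Dclk1 (0.962), Lmx1a for Spdef (0.9) and Chat for Tff3 (0.869). Each is the highest of 30 correlations over 6 points, and all points share the library means, so these values are a description only. For 4 of the 5 members the closest gene came from a list of another lineage.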

How the data were processed

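Methylation was measured by RRBS in 3 DM-aKG and 3 control organoid libraries. The submitters' processing notes name CASAVA 1.8, Novoalign 3.08.02 and the build mm10, without roles; for the methylation caller no name is stated there or in the labels. The deposited table gives a percent of methylation for each cytosine position and library, rounded by the authors to whole numbers, without coverage, so depth is unknown and no coverage minimum was applied.

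Of 813850 rows the first 390208 were used, because later rows are out of register between libraries. A change-point scan placed the break at row 390207. Of 3458 positions in promoter windows 99.9% fell on a CpG when the start column was read as counting from 1, as is done here. A 0 was taken as no value, and sites with a value in all 6 libraries were used.

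Gene spans (GRCm38.p6) with 1000 bases each side needed 3 sites, gene ends (within 1000 bases of either end) and bodies 1 site. The annotation gives no exons, so exons and introns are not told apart. The test was limma (version 3.58.1, R 4.3.3) of DM-aKG minus control with no block for replicate number, adjusted over all features at 0.05: genes on log2 odds with an offset of 0.01, sites on untransformed levels, because sites at 100% in a whole group are set by the offset. The tests were tried on simulated data. Intervals of differences are limma's 95% intervals on untransformed levels. The test of ends against bodies and the stretches (sites at most 500 bases apart) were added after the data were seen. The 3 replicates per group are biological replicates, per the labels. Genes named are the members, per member the site without overlap with the largest difference in each direction, and the 4 genes of smallest p in each lineage list, of which 1 is not reported here; other sites and genes were named after their values were seen. The members and lists were chosen with earlier results of these data known.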

Additional observations from a re-analysis of the deposited data

Results flagged for a closer look

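Positions outside the complete sites were found that had values with DM-aKG and none in any control. In Chga, position 102562808 on chromosome 12 was at 50%, 100% and 100% in the 3 DM-aKG libraries (mean 83.3%), and had no value in the 3 controls. In Dclk1, position 55350161 on chromosome 3 was at 45%, 41% and 69% in the 3 DM-aKG libraries (mean 51.7%), and had no value in the 3 controls. The opposite pattern occurred once, in Dclk1 at 55530832, where the 3 DM-aKG libraries had no value and the 3 controls were at 100%. No share of either pattern over all positions is given. The table does not tell a level under 40% from a position without reads.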

How the results depend on the processing

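Over 17 alternatives the gene span differences of Agr2, Tff3, Spdef and Chga stayed positive and none passed the threshold. Their ranges were 2.11 to 3.57, 2.32 to 4.54, 1.2 to 6.48 and 1.13 to 10.8 points. Untransformed levels, robust variance estimation, a replicate block and other minimum site numbers could not move these differences in points. Other flanks returned the same values. Equalised library means lowered every gene by nearly the same amount, which is smaller than these differences. The sign could therefore turn only in the remaining alternatives. Dclk1 ranged from -0.275 to 3.26. With each 0 counted as a level of 0, Chga and with it the enteroendocrine difference was 10.8 points. In that setting Dclk1 and with it the tuft difference was -0.275 in both span and body. The Spdef end value was -18.5 and the Tff3 end value 2.07. The setting adds only the incomplete positions. In Chga this is the position without control values, and in Dclk1 it is 38 positions. Some of the Dclk1 positions had values in controls alone, all at 100%: 55278520, 55356258, those from 55423058 to 55423186, and 55530832. Others had values with DM-aKG alone: 55347627, 55348221, 55350161 and 55533750. At the Spdef end it is 27714653, valued only in control replicates 1 and 3 (72% and 70%). At the Tff3 end it is 31125111 and 31125112. With single replicates left out the Tff3 end value ranged from -1.83 to 0.833 points; it was 0.778 without DM-aKG replicate 1, 0.833 without control replicate 1 and 0.333 without control replicate 2. With library means equalised the median over all gene spans was -0.317 points in place of 0.733, and the 5 members lay between 1.5 and 2.84 points. With single replicates left out the goblet difference was 2.37 to 4.51 points, the enteroendocrine 1.13 to 5.08 and the tuft 1.76 to 3.26.

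Counts of all genes past the threshold were 1 for gene spans on untransformed levels (Tmem200c), 1 with at least 1 site (BC147527) and 7 with zeros as levels; 31 gene ends and 14 gene bodies passed with zeros as levels, and 1 gene end with ends of 500 bases. Sites on log2 odds gave 407. Leaving out single replicates gave 0 gene spans, 0 to 3 gene ends, 0 to 7 gene bodies and 0 to 9 sites. Same-numbered replicates did not deviate together over gene spans (correlations 0.0652, -0.0276 and 0.0306), and a replicate block gave 0 gene spans, 0 gene ends, 0 gene bodies and 0 sites. Not every library correlated best with its own number. Unknown depth limits every single-site value.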

Other observations

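Among the members' 51 positions without a value in some library, 27 had values in more DM-aKG than control libraries, 20 in more control than DM-aKG libraries and 4 in equal numbers. Control replicate 1 lacked a value at 38 of the 51, against 18 to 21 in the DM-aKG libraries and 16 and 13 in control replicates 2 and 3. That library also had the fewest values over all rows used. Values were found in DM-aKG libraries alone at 5 positions and in control libraries alone at 10. The latter include a cluster in Dclk1 from 55423058 to 55423186, at 100% in control replicates 2 and 3 only, so they are not independent. No share over all positions is given for these counts, which are a description only. Agr2 was the only measured member with a value in all 6 libraries at every position in the table.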
